A study of Mus musculus with 14 samples.

Results

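The homeostatic microglia genes were the 10 genes P2ry12, P2ry13, Tmem119, Cx3cr1, Siglech, Sall1, Selplg, Csf1r, Gpr34 and Olfml3, taken by gene name from the 43346 genes of the count table. All 10 were found, each in a single row, and all 10 passed the filter on low counts in every comparison. They were measured by RNA-seq in brain cross-sections holding hippocampus and cortex from 14 female mice aged 23 months, one library per mouse, of the labelled strain C57BL/6;SJL-Tg. The 4 NTG mice were non-transgenic littermates. The 5 vehicle-treated APP/PS1 mice carried transgenes for mutant human amyloid precursor protein and presenilin 1, an amyloid plaque model of familial Alzheimer's disease, and the 5 CP2-treated APP/PS1 mice carried the same transgenes. CP2, a tricyclic pyrone and partial inhibitor of complex I in mitochondria, was dissolved in the drinking water at 25 mg/kg per day from 9 months of age for 14 months. The GEO labels call the other 9 mice non-treated, and the study's methods describe a vehicle of 0.1% polyethylene glycol in water for controls. The labels do not name the cells in which the transgenes were driven, and NTG mice given CP2 were not analysed here.

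Microglia are the resident macrophages of the brain, and in the healthy adult brain they express a set of surface receptors and nuclear factors that distinguish them from other macrophages. Csf1r, the receptor for Csf1 and Il34, is needed for their survival, Cx3cr1 binds the neuronal chemokine Cx3cl1, and P2ry12 senses ADP and steers their processes towards injury. Signalling by transforming growth factor beta maintains much of this set, which includes the transcription factor Sall1. In single microglia close to amyloid plaques several of these genes are known to be lowered while genes such as Trem2, Apoe and Cst7 are raised, so their level in whole tissue depends on both the number of microglia and the state of each cell.

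On mm10 the genes lay on 7 chromosomes, at coordinates deposited with the counts. P2ry12 (chr3:59216271-59262831) and P2ry13 (chr3:59207896-59210882) were neighbours, 5388 bases apart, and both lay inside the span of Med12l on the other strand. Tmem119 (chr5:113793729-113800516) and Selplg (chr5:113817798-113830501) were 17281 bases apart. Olfml3 lay at chr3:103733700-103738001, Siglech at chr7:55768178-55778925, Sall1 at chr8:89027248-89044162, Cx3cr1 at chr9:119901616-120068283 and Gpr34, inside the span of Cask, at chrX:13632089-13640858. Reads had been counted for every gene they overlapped, so a read on shared bases added to each gene. In GENCODE M21, Csf1r shared 873 of 5774 exonic bases (15.1%) with Hmgxb3, Cx3cr1 shared 78 (1.73%) and P2ry12 shared 9 (0.353%) with other genes, and the other 7 shared 0.

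The promoters of the 10 genes were searched for short motifs, and any link between a motif and the level of a gene was not tested. The RefSeq promoters (GRCm38.p6, 250 bases before to 50 bases after the start) covered 6 of the 10 genes in 8 windows. Windows are shown for the neighbouring ADP receptors P2ry12 and P2ry13 and for Siglech. These genes were 1.24-fold, 1.4-fold and 2.16-fold higher in vehicle-treated APP/PS1 than in NTG mice. The other windows, among them those of Sall1 (1.19-fold), are not shown. The windows shown run 5′ to 3′ on the gene's own strand, P2ry12 at chr3:59262936-59263235 (minus), P2ry13 at chr3:59210833-59211132 (minus) and Siglech at chr7:55767934-55768233 (plus). The P2ry12 window lay wholly upstream of the counted P2ry12 gene, whose deposited span ends at 59262831, so it belongs to another start site. GAGGAA, which holds the GGAA core bound by ETS factors such as PU.1, is in capitals on either strand (TTCCTC on the reverse). GGAA outside GAGGAA is not marked, and it also occurs in the P2ry12 window.
P2ry12: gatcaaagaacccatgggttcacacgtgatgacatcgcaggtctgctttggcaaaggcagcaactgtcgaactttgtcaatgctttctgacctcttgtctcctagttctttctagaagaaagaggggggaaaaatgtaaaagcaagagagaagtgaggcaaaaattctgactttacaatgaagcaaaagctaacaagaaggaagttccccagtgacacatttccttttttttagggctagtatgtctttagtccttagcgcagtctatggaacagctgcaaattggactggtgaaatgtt
P2ry13: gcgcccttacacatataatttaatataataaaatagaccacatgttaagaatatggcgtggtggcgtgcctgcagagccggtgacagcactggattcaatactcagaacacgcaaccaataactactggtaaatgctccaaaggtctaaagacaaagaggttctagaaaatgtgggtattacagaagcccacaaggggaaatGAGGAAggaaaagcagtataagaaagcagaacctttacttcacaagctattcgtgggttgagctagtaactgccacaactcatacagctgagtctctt
Siglech: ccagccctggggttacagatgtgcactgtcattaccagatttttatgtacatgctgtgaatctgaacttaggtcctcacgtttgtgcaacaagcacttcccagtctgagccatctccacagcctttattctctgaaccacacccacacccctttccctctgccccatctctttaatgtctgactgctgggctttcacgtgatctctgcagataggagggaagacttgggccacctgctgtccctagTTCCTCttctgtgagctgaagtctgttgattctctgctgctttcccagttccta
GAGGAA was present in 2 of the 8 windows, at −48 to −43 in P2ry13 and on the reverse strand at −4 to 2 in Siglech, against 28.3% of 32851 promoters of the same length. The longer GAGGAAGT, which contains it, was in 0 of 8 windows against 3.2% of all promoters. The SMAD box CAGACA was in 1 window, on the reverse strand of Siglech at −75 to −70, against 21% of all promoters. Tmem119, Selplg, Csf1r and Gpr34 had no entry.

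The libraries held 70548781 to 106235625 counts, so that 1 count stood for 0.00918 to 0.0149 CPM (counts scaled to a common library size, with TMM factors over all mice), and the lowest count of any of the 10 genes in any mouse was 790. Vehicle-treated APP/PS1 mouse 16 stood apart in its tissue: striatal marker genes summed to 2610 CPM in it against 207 to 394 CPM in the other mice, and its thalamic markers were the lowest. Counts of rRNA-like genes made up 2.4% (mouse 16) to 7.5% (NTG mouse 8) of each library, and choroid plexus markers summed to between 25 and 1350 CPM. The labels number each mouse and say no more of how its sample was taken, so the p-values measure the spread between these mice.

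**Figure D1:**
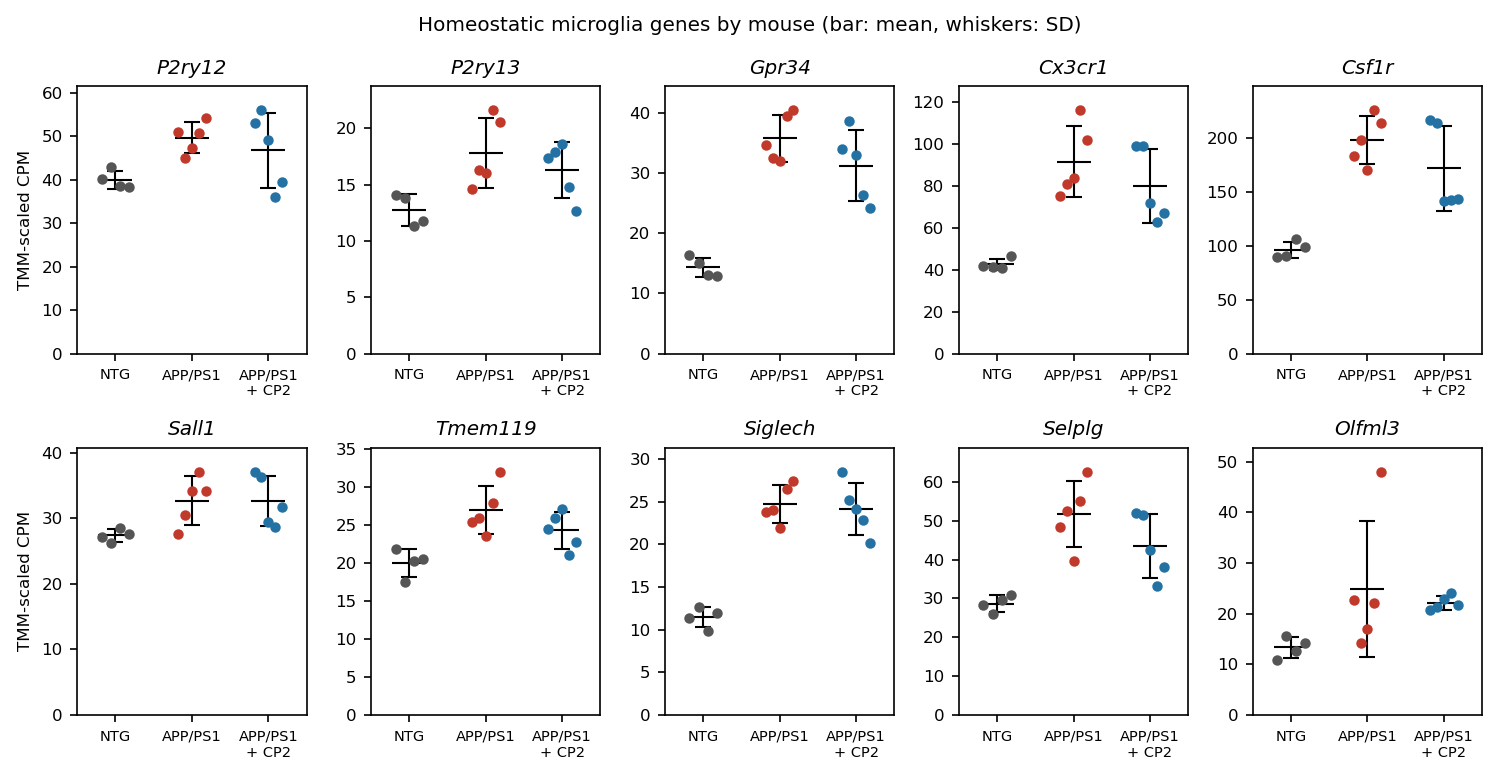
TMM-scaled CPM of the 10 homeostatic genes in each of the 14 mice (points), with the group mean (bar) and SD (whiskers), in NTG mice and in APP/PS1 mice on vehicle or CP2. Gpr34 lies at 12.9 to 16.3 CPM in NTG mice, at 32 to 40.4 CPM in APP/PS1 mice on vehicle and at 24.1 to 38.7 CPM with CP2, whereas P2ry12 lies at 38.4 to 42.9, 45.1 to 54.2 and 36 to 56 CPM.

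The first comparison, of APP/PS1 mice on vehicle with NTG mice, asks how the plaque model changes homeostatic microglial transcripts in whole tissue. None of the 10 genes was lower in APP/PS1 mice. By edgeR's quasi-likelihood test 7 rose at an adjusted p under 0.05, against 4.34% of the 16417 genes tested that were called higher, and all 10 were higher at an unadjusted p under 0.05 (10.6% of genes). In 8 of the 10 every APP/PS1 mouse lay above every NTG mouse (6.15% of genes), and 10 of 10 fold changes were above 0 (48.8% of genes). The median log2 fold change was 0.87 against −0.004 over all genes tested. The sizes fell into a wide range, from 1.19-fold for Sall1 to 2.5-fold for Gpr34. The count was 5 without NTG mouse 9, 6 without NTG mouse 8 or 10 or APP/PS1 mouse 17 or 19, and 9 without mouse 16. It was also 9 with the share of rRNA-like counts as a covariate, where Tmem119 lost its call (adjusted p = 0.0608). In bulk tissue, fewer or more microglia and less or more RNA per microglial cell cannot be told apart.

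Of the purinergic and lipid receptors, Gpr34, a receptor for lysophosphatidylserine, rose most. Gpr34 stood at 16.3, 15, 13 and 12.9 CPM in NTG mice 7 to 10, at 34.6, 32.4, 32, 39.4 and 40.4 CPM in vehicle-treated APP/PS1 mice 16 to 20, and at 34, 38.7, 32.9, 26.4 and 24.1 CPM in mice 21 to 25, which received CP2. All 10 transgenic mice lay above all NTG mice. Its log2 fold change in APP/PS1 mice on vehicle against NTG mice was 1.32 ± 0.10 (SE, n = 5 and 4, edgeR adjusted p = 0.000119). Its host gene Cask, on the X chromosome, had a log2 fold change of −0.03 (adjusted p = 0.868).

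P2ry12, the ADP receptor widely used to stain resting microglia, stood at 40.3, 42.9, 38.5 and 38.4 CPM in NTG mice, at 51.1, 45.1, 47.4, 50.8 and 54.2 CPM in vehicle-treated APP/PS1 mice, and at 53, 56, 49.2, 36 and 39.6 CPM in the CP2-treated mice. The vehicle-treated APP/PS1 mice did not overlap with NTG mice, while CP2-treated mouse 24 lay below and mouse 25 within the NTG range. Its log2 fold change in vehicle-treated APP/PS1 against NTG mice was 0.31 ± 0.06 (edgeR adjusted p = 0.015), a 1.24-fold rise with a 95% interval of 1.13 to 1.37, and the call was lost without NTG mouse 9 (adjusted p = 0.06) and with all 3 groups in one fit (adjusted p = 0.106). The neighbouring ADP receptor P2ry13 stood at 14.1, 13.8, 11.3 and 11.8 CPM in NTG mice, at 14.6, 16.3, 16, 21.6 and 20.6 CPM in vehicle-treated APP/PS1 mice, and at 17.4, 17.9, 18.6, 14.8 and 12.7 CPM in the CP2-treated mice. NTG and vehicle-treated APP/PS1 mice were close but did not overlap, and P2ry13 did not pass the adjusted test (log2 fold change 0.48 ± 0.13, edgeR adjusted p = 0.0594), although it did without mouse 16 (adjusted p = 0.0164). Med12l, which spans both genes, had a log2 fold change of −0.06 (adjusted p = 0.678).

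The chemokine and growth factor receptors about doubled. Cx3cr1, the fractalkine receptor, stood at 41.9, 41.5, 40.7 and 46.4 CPM in NTG mice, at 75, 81, 83.5, 116 and 102 CPM in vehicle-treated APP/PS1 mice, and at 99.2, 99, 71.9, 62.8 and 67.1 CPM in the CP2-treated mice. Its lowest transgenic mouse, CP2-treated mouse 24, was still above the highest NTG mouse. The log2 fold change of vehicle-treated APP/PS1 against NTG mice was 1.10 ± 0.12 (edgeR adjusted p = 0.00071).

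Csf1r (chr18:61105572-61132149) stood at 89.7, 90.3, 106 and 98.7 CPM in NTG mice, at 184, 198, 171, 226 and 214 CPM in vehicle-treated APP/PS1 mice, and at 217, 214, 142, 143 and 144 CPM in the CP2-treated mice. Groups did not overlap between NTG and either transgenic group, and the CP2-treated mice lay in 2 clusters, mice 21 and 22 at the level of the vehicle-treated mice and mice 23, 24 and 25 below the lowest of them. Its log2 fold change in vehicle-treated APP/PS1 against NTG mice was 1.05 ± 0.09 (edgeR adjusted p = 0.000175). Hmgxb3, which shares exonic bases with Csf1r, had a log2 fold change of 0.04 (adjusted p = 0.82).

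Sall1, the zinc finger factor that maintains microglial identity, stood at 27.1, 26.3, 28.6 and 27.6 CPM in NTG mice, at 27.6, 30.5, 34.2, 37.1 and 34.2 CPM in vehicle-treated APP/PS1 mice, and at 37.1, 36.3, 29.5, 28.7 and 31.8 CPM in the CP2-treated mice. Mouse 16 lay within the NTG range, the other 4 vehicle-treated mice above it. Sall1 had the smallest fold change of the 10 and did not pass the adjusted test (log2 fold change 0.26 ± 0.08, edgeR adjusted p = 0.115), whereas without mouse 16 its log2 fold change was 0.31 (adjusted p = 0.0117).

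The remaining surface and secreted proteins ranged from a small rise to a doubling. Tmem119, a transmembrane protein used as a microglial marker, stood at 21.8, 17.5, 20.2 and 20.5 CPM in NTG mice, at 25.4, 25.9, 23.6, 27.9 and 32 CPM in vehicle-treated APP/PS1 mice, and at 24.5, 25.9, 27.1, 21.1 and 22.8 CPM in the CP2-treated mice. The NTG and vehicle-treated APP/PS1 mice did not overlap, and the log2 fold change was 0.43 ± 0.10 (edgeR adjusted p = 0.0276), a call lost in 6 of 17 other settings. Siglech, a sialic acid binding lectin, stood at 11.4, 12.7, 9.89 and 11.9 CPM in NTG mice, at 23.8, 24, 21.9, 26.5 and 27.4 CPM in vehicle-treated APP/PS1 mice, and at 28.5, 25.2, 24.1, 22.9 and 20.1 CPM in the CP2-treated mice. Its coefficient of variation was 10.4% in NTG, 8.88% in vehicle-treated and 12.8% in CP2-treated APP/PS1 mice. Siglech separated all transgenic from all NTG mice, with a log2 fold change of 1.11 ± 0.09 (edgeR adjusted p = 0.000139).

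Selplg, the P-selectin ligand, stood at 28.2, 25.9, 29.5 and 31 CPM in NTG mice, at 48.4, 52.5, 39.7, 55.2 and 62.6 CPM in vehicle-treated APP/PS1 mice, and at 52, 51.4, 42.4, 33.2 and 38.2 CPM in the CP2-treated mice. All transgenic mice exceeded all NTG mice, and the log2 fold change of vehicle-treated APP/PS1 mice was 0.85 ± 0.12 (edgeR adjusted p = 0.002). Olfml3, a secreted olfactomedin family protein, stood at 10.9, 15.6, 12.6 and 14.3 CPM in NTG mice, at 22.7, 14.3, 17, 22.2 and 48 CPM in vehicle-treated APP/PS1 mice, and at 20.7, 21.3, 22.9, 24.1 and 21.7 CPM in the CP2-treated mice. Mouse 20 stood far above its group and mouse 17 lay within the NTG range. Olfml3 did not pass the adjusted test (log2 fold change 0.89 ± 0.32, edgeR adjusted p = 0.158), nor did it without mouse 20 (0.51, adjusted p = 0.147), and it passed only with the share of rRNA-like counts as a covariate (1.31, adjusted p = 0.0432).

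**Figure D2:**
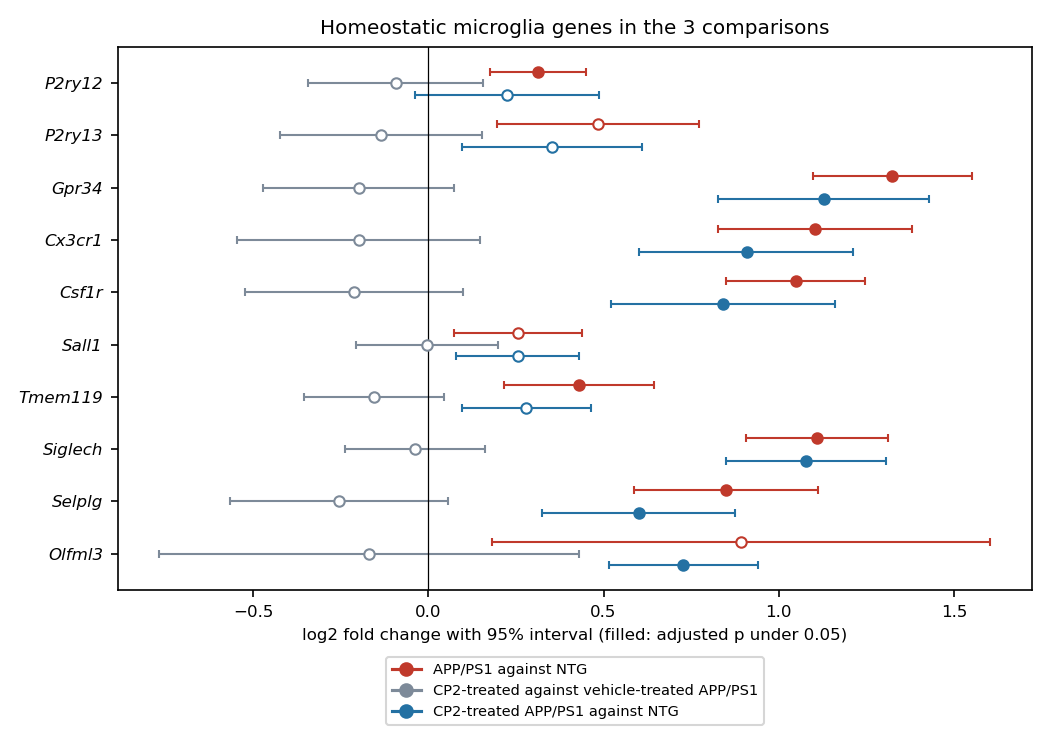
Log2 fold change of each homeostatic gene with its 95% interval in the 3 comparisons (red APP/PS1 against NTG, grey CP2 against vehicle, blue APP/PS1 with CP2 against NTG), filled where edgeR's adjusted p was under 0.05. All 10 red intervals lie to the right of 0, as do the blue ones except that of P2ry12, and all 10 grey intervals span 0.

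APP/PS1 mice given CP2 were then compared with those given vehicle, to ask whether 14 months of treatment altered these transcripts. By edgeR 0 of the 10 passed the adjusted test, where 1 gene in all (0.00609% of 16407) did, and 0 passed at an unadjusted p under 0.05 (6.55% of genes). DESeq2 called 0 of the 10 as well. In 0 of the 10 did the groups fail to overlap (1.18% of genes). The 10 log2 fold changes were slightly below 0 (52.5% of genes were), from −0.26 (Selplg) to −0.004 (Sall1), with a median of −0.16 against −0.006 over all genes tested. The 95% intervals of the fold were 0.675 to 1.04 for Selplg, 0.685 to 1.11 for Cx3cr1 and 0.696 to 1.07 for Csf1r. They were 0.72 to 1.05 for Gpr34, 0.789 to 1.11 for P2ry12 and 0.849 to 1.12 for Siglech. The estimate for Selplg was a fall of 16.2%, and its interval held both a larger fall and a small rise. The interval of Olfml3 was the widest, at 0.587 to 1.35.

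Within the CP2-treated group the genes varied in common. Mice 21 and 22 were among the highest 2 of their group in 7 and 9 of the 10 genes, and mice 24 and 25 among the lowest 2 in 9 and 7. Summed over the 10 genes, the level was 583 and 586 CPM in mice 21 and 22, 460 in mouse 23, and 413 and 422 CPM in mice 24 and 25. In vehicle-treated APP/PS1 mice the sums were 507, 520, 486, 623 and 635 CPM, and in NTG mice 302, 302, 310 and 313 CPM. The coefficient of variation exceeded that of NTG mice in 8 of the 10 genes with vehicle and in 9 of the 10 with CP2. None of these counts of ranks or of coefficients of variation was made over all genes tested, so they are not read as traits of these 10.

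CP2-treated APP/PS1 mice were also compared with NTG mice, a comparison that shares its mice with the other 2. By edgeR 6 of the 10 rose at an adjusted p under 0.05 (4.56% of 16416 genes), 9 at an unadjusted p under 0.05 (11.6%), and 7 did not overlap with NTG mice (6.43%). Gpr34 was highest, with a log2 fold change of 1.13 ± 0.14 (edgeR adjusted p = 0.000871), followed by Siglech at 1.08 ± 0.10 (adjusted p = 0.000352) and Cx3cr1 at 0.91 ± 0.14 (adjusted p = 0.00296). Csf1r (0.84, adjusted p = 0.0063), Olfml3 (0.73, adjusted p = 0.0014) and Selplg (0.60, adjusted p = 0.0178) also rose, although Selplg lost its call without NTG mouse 8 (adjusted p = 0.0589) and Olfml3 with all 3 groups in one fit (adjusted p = 0.164). P2ry12, at 0.22 ± 0.12 (adjusted p = 0.323), P2ry13, Sall1 and Tmem119 did not pass.

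Microglial markers at large had a larger median fold change than the homeostatic genes, a description that was not tested. A list of 16 genes expressed by microglia and other myeloid cells in any state, such as Aif1, C1qa, Ctss, Fcer1g, Itgam, Ptprc, Spi1 and Tyrobp, was called higher in 16 of 16 in both comparisons with NTG mice. Its median log2 fold change against NTG mice was 1.51 with vehicle and 1.29 with CP2. With vehicle its genes ranged from 0.85 to 2.12, which overlapped the homeostatic genes (0.26 to 1.32). Its summed level was 407 to 433 CPM in NTG mice and 862 to 1480 CPM in vehicle-treated APP/PS1 mice. In CP2-treated mice 21 to 25 it was 1160, 1210, 977, 847 and 799 CPM. Mice 21 and 22 were thus highest and mice 24 and 25 lowest, as in the sums of the homeostatic genes. Whether these 16 genes kept the same level per cell was not tested. Tyrobp, an adaptor of activating receptors, rose by 2.12 and Fcer1g by 1.98 on the log2 scale (edgeR adjusted p = 0.000119 and 0.000207).

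The level of each homeostatic gene was therefore also expressed relative to this list, as log2 CPM minus the mean log2 CPM of the 16 genes, with no test. On this scale all 10 means were lower in APP/PS1 than in NTG mice, and in 6 of the 10 (P2ry12, P2ry13, Tmem119, Cx3cr1, Sall1 and Selplg) the groups did not overlap. That count has no weight of its own, since 94.9% of all genes tested were lower without overlap on the same scale, which carries the rise of the reference list. The scale shifts the difference of every gene by about the same amount. The order among the 10 is therefore that of the fold changes above, except that Olfml3 and Selplg change places. P2ry12 went from 1.28, 1.54, 1.37 and 1.39 in NTG mice to 0.66, 0.17, 0.14, −0.12 and 0.16 in vehicle-treated APP/PS1 mice, and to between 0.19 and 0.42 in the CP2-treated mice. The difference of means, APP/PS1 on vehicle minus NTG, was −1.25 for Sall1, −1.19 for P2ry12, −1.08 for Tmem119 and −1.03 for P2ry13. It was −0.74 for Olfml3, −0.67 for Selplg, −0.46 for Csf1r, −0.42 for Cx3cr1, −0.39 for Siglech and −0.18 for Gpr34, and for Gpr34 mouse 16 lay above every NTG mouse. Mouse 16 had the highest relative level of its group in 9 of the 10 genes. Its mean log2 CPM of the reference list was the lowest of its group (5.01 against 5.33 to 5.79). A low reference raises every gene on this scale, so that count has no weight of its own either. Without mouse 16, 9 of the 10 were lower without overlap (97.1% of genes). Between CP2-treated and NTG mice 7 of 10 were lower without overlap (96% of genes), and with CP2 against vehicle 0 of 10 were without overlap in either direction (0.433% of genes), with a median difference of 0.08.

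**Figure D3:**
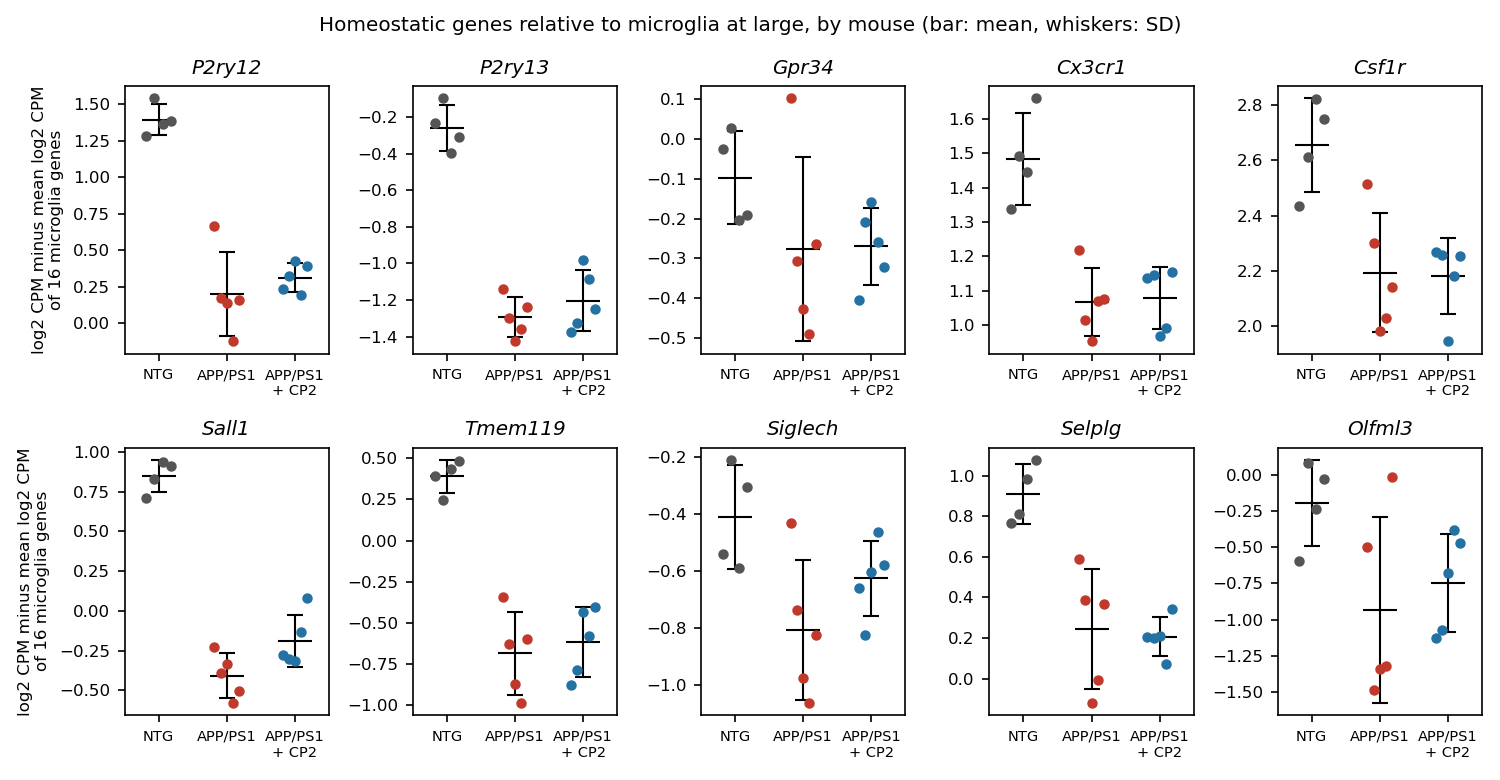
Level of each homeostatic gene relative to microglia at large (log2 CPM minus the mean log2 CPM of 16 microglia genes) by mouse, with group mean and SD, each panel on its own axis. P2ry12, P2ry13, Tmem119 and Sall1 show a wide gap between NTG and transgenic mice, Gpr34 and Siglech overlap.

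The same divergence could be read from counts of pairs of genes within a mouse, chosen after their values were seen and given without a test. Gpr34 had 0.335 to 0.404 counts per count of P2ry12 in NTG mice, 0.675 to 0.775 in APP/PS1 mice on vehicle and 0.608 to 0.732 with CP2. The ratio of Csf1r to P2ry12 was 2.1 to 2.75, 3.6 to 4.45 and 2.87 to 4.09 in the same order. By contrast the ratio of P2ry13 to P2ry12 overlapped between groups. It was 0.294 to 0.349 in NTG mice, 0.286 to 0.426 in vehicle-treated APP/PS1 mice and 0.319 to 0.412 with CP2. Vehicle-treated mice 17, 19 and 20 (0.361, 0.426 and 0.38) nevertheless lay above every NTG mouse.

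Per length, in the deposited RPKM values (reads scaled to gene length and library size), the order of the 10 genes shifted. The library totals behind these values are not stated, and the values correspond to 1.18 to 1.24 times the sum of the deposited counts of each mouse, so they were compared between genes and not tested between groups. In NTG mice the median RPKM was 15.9 for Csf1r and 13.6 for P2ry12, followed by Selplg (8.88) and Cx3cr1 (8.85), whose ranges overlapped. Tmem119 (7.15) and Gpr34 (5.35) came next and overlapped, then Sall1 (4.25) and P2ry13 (4.07), which overlapped, and last Siglech (2.82) and Olfml3 (2.74), which did too. In vehicle-treated APP/PS1 mice Csf1r stayed first at 35.2 RPKM, followed by Cx3cr1 (19.2), P2ry12 (17.5), Selplg (17.4) and Gpr34 (13.8). Neighbours among these 4 overlapped, whereas the range of Gpr34 (13.2 to 15.5) lay below those of Cx3cr1 (16.7 to 25.5) and P2ry12 (16.5 to 18.3). Siglech moved from the ninth place to the seventh at 6.19 RPKM, a range that overlapped that of P2ry13 (5.62). In CP2-treated mice Csf1r (24.5) led P2ry12 (16.6) and Cx3cr1 (15.4), which overlapped.

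**Figure D4:**
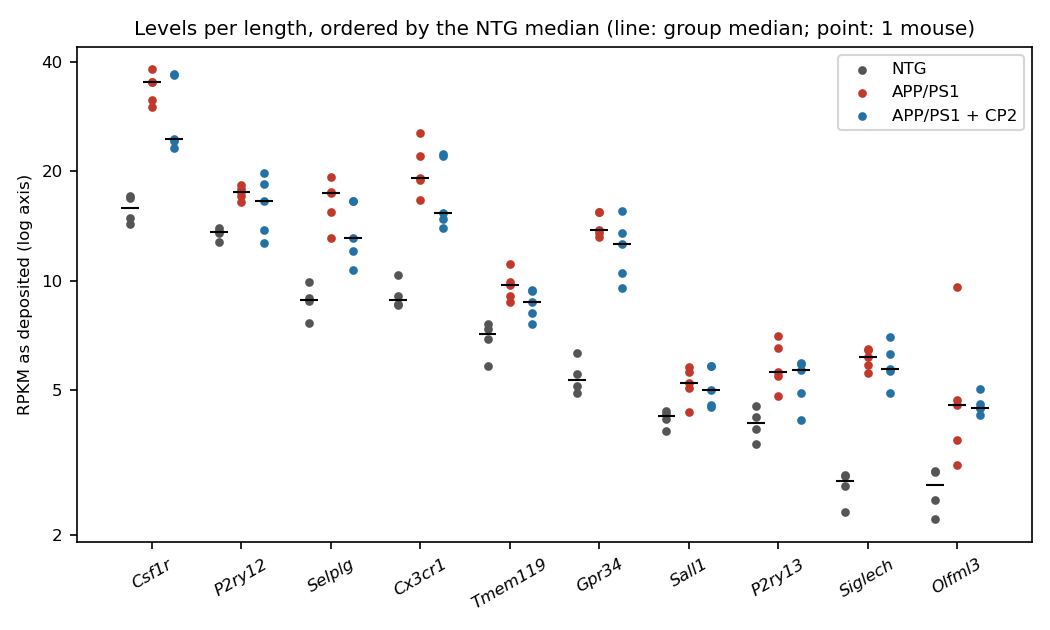
Deposited RPKM of the homeostatic genes by mouse on a log axis, ordered by the NTG median, with group medians as lines. Csf1r is the highest in each group, with medians of 15.9, 35.2 and 24.5 RPKM in NTG mice, APP/PS1 mice on vehicle and APP/PS1 mice on CP2.

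A further 20 genes known from homeostatic microglia were read beside them, and 11 of the 20 rose in vehicle-treated APP/PS1 against NTG mice, 0 fell at the adjusted threshold, and the median log2 fold change was 0.46. P2ry6, a receptor for UDP, rose by 1.21 (edgeR adjusted p = 0.00384) and Hpgds, a prostaglandin D synthase, by 1.19 (adjusted p = 0.000635) on the log2 scale. Crybb1, a crystallin expressed by microglia, had a log2 fold change of −0.54 that did not pass (adjusted p = 0.262). Several of the 20, such as Sparc, Cst3 and Mef2a, are also expressed by other brain cells. In CP2-treated against NTG mice 10 of the 20 rose, among them Hpgds by 1.02 (adjusted p = 0.00055) and Ikzf1, a lymphoid and myeloid transcription factor, by 0.86 (adjusted p = 0.00171). With CP2 against vehicle 0 of the 20 passed, and Serinc3 (log2 fold change −0.15, unadjusted p = 0.00773) and Rnase4 (−0.35, unadjusted p = 0.0178) had adjusted p = 0.744.

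Ligands and signalling partners of the 10 genes were given by a list of 17, of which 14 passed the filter. Of the ligands of Csf1r, Csf1 rose by 0.66 ± 0.11 on the log2 scale in vehicle-treated APP/PS1 against NTG mice (25.2 to 39.9 CPM, edgeR adjusted p = 0.0056), and Il34 had a log2 fold change of 0.07 ± 0.10 (adjusted p = 0.786). Cx3cl1, the ligand of Cx3cr1, was at 457 and 418 CPM (log2 fold change −0.13 ± 0.16, adjusted p = 0.737). Of the transforming growth factor beta pathway, Tgfb1 rose by 1.21 (adjusted p = 0.00121), its receptor Tgfbr2 by 1.15 (adjusted p = 0.000649) and Nrros, which presents the latent ligand on microglia, by 0.90 (adjusted p = 0.00144), whereas its mediator Smad3 had a log2 fold change of 0.02 (adjusted p = 0.929). Runx1, a myeloid transcription factor, rose by 1.63 (adjusted p = 0.00148), and the ATP-gated channel P2rx7 by 0.40 (adjusted p = 0.0394).

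The other partners did not pass. P2rx4, another ATP-gated channel, had a log2 fold change of 0.23, the ATP-releasing channel Panx1 of 0.18 and Sall3, a relative of Sall1, of 0.37 (edgeR adjusted p = 0.278, 0.372 and 0.0864). Abhd16a and Abhd12, which make and degrade lysophosphatidylserine, had −0.14 and 0.10 (adjusted p = 0.157 and 0.269). With CP2 against vehicle 0 of the 14 passed the adjusted test. Nrros was the nearest, at 9.78 and 7.26 CPM without overlap, a log2 fold change of −0.44 ± 0.07 (unadjusted p = 9.35e-05, adjusted p = 0.511). Against NTG mice, CP2-treated mice had 6 of the 14 higher and 1 lower, Abhd16a at −0.20 (adjusted p = 0.0292).

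Of the genes of plaque-associated microglia 12 of 15 were called higher in vehicle-treated APP/PS1 against NTG mice, with a median log2 fold change of 1.77. Cst7, a cystatin, rose by 5.62 and Itgax, an integrin, by 3.47 on the log2 scale (edgeR adjusted p = 8.12e-05 and 0.000316). Other myeloid cells were read from lists of their markers. Of 10 markers of border macrophages 5 passed the filter and 1 rose, Siglec1 by 1.13 (edgeR adjusted p = 0.0294), with a summed level of 15.2 to 20.1 CPM in NTG mice and 21 to 26.8 CPM in vehicle-treated APP/PS1 mice. Of 14 markers of monocytes, granulocytes and lymphocytes 1 passed the filter, and their sum was 3.52 to 10.3 CPM in NTG and 6.77 to 26.7 CPM in vehicle-treated APP/PS1 mice, highest in mouse 16. None of these markers was at 0 in every mouse, and their part in the levels of the homeostatic genes was not tested. Astrocyte markers rose in 3 of 8 and fell in 1, with Gfap, an intermediate filament, up by 2.30 on the log2 scale (adjusted p = 0.000649), and 0 of 8 neuronal and 0 of 8 oligodendrocyte markers passed. Of the 4 tested genes of cell division 1 rose, Top2a by 1.25 on the log2 scale (edgeR adjusted p = 0.00984), as did 1 of 8 vascular and meningeal markers, and 0 of the striatal, thalamic and choroid plexus markers passed. The median log2 fold change of the 9 striatal markers was nevertheless 1.81 in APP/PS1 against NTG mice and −1.44 with CP2 against vehicle, and that of the 8 thalamic markers −0.48 and 0.57, with 4 of the 8 higher at an unadjusted p under 0.05 with CP2. The part of these regional differences in the levels of the homeostatic genes was not tested, beyond the values without mouse 16.

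**Figure D5:**
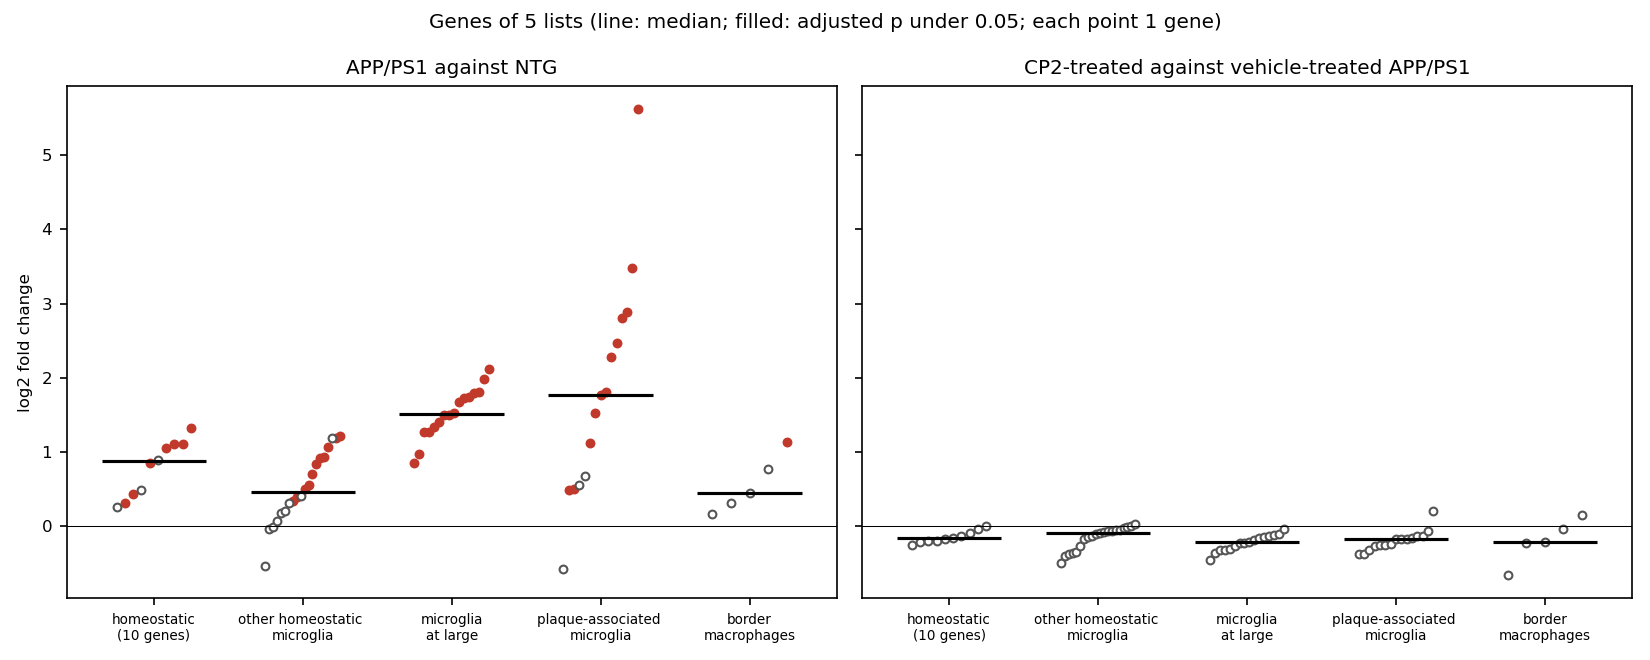
Log2 fold changes of the genes of 5 lists (points, filled where edgeR's adjusted p was under 0.05) with list medians (lines), for APP/PS1 against NTG mice on the left and CP2 against vehicle on the right. The homeostatic median of 0.87 lies below that of microglia at large (1.51) on the left, and no point is filled on the right.

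Across mice the homeostatic genes varied together within groups. After the group mean was taken off each gene's log2 CPM, all 45 pairs of the 10 genes had a positive Pearson r over the 14 mice, from 0.05 to 0.87, with a median of 0.59 (0.61 without mouse 16). The pairs Cx3cr1 with Sall1 and P2ry12 with Gpr34 had r = 0.87 each, so genes that differed in fold change between groups still followed each other from mouse to mouse. Olfml3 was the least connected, with a median r of 0.26 to the others. Each mouse contributed a single tissue piece and library to all genes, and these values are descriptions. They were not computed for pairs of other genes.

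Other genes tested were ranked by how closely their residuals followed the mean of the homeostatic genes over the same 14 mice. Among the 10 most alike were Tyrobp (r = 0.93), Hexa (0.93), a subunit of a lysosomal hexosaminidase, and Mpeg1 (0.92), a macrophage pore-forming protein. Wdfy4 (0.91), Tbxas1 (0.91), which makes thromboxane, the cyclin Ccnd1 (0.91) and the phosphodiesterase Pde3b (0.91) were also among them. In vehicle-treated APP/PS1 against NTG mice these 7 were called higher, from 0.39 on the log2 scale for Pde3b (edgeR adjusted p = 0.0142) to 2.12 for Tyrobp.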

How the data were processed

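Per the study's methods and the labels, RNA from each of 14 mice was sequenced as paired reads from an unstranded TruSeq library, and the authors aligned them to mm10 with TopHat2 and counted reads per Ensembl gene with featureCounts, counting a read for every gene it overlapped. The strand setting and the Ensembl release are not given in the sources used here. The authors deposited raw counts and RPKM values per mouse. The RPKM values served only to order genes per length. Counts (70548781 to 106235625 per mouse, 43346 genes) were tested with edgeR 4.0.16 (quasi-likelihood, TMM, no covariate), each comparison on its 2 groups, among genes above 1 CPM in every mouse of at least 1 group, with Benjamini-Hochberg adjustment over all genes tested and a threshold of 0.05. SEs follow from the F statistic, and intervals cover 95%. Log2 CPM used a prior count of 2. The members and the 14 gene lists (165 genes, all matched) were chosen with earlier results of these data known. Named genes were the 10 members, genes overlapping them, all tested ligands and partners, up to 2 genes per direction of each other list, and the 10 genes most like the members, of which some are not reported here. Replicates differed beyond sampling noise in all 26 pairs. On simulated counts, the test recovered 64% of 1.5-fold and 94.4% of 2-fold changes for APP/PS1 against NTG, and 77.3% and 94.4% for CP2 against vehicle. Of the simulated calls, 3.12% and 6.08% were false. These counts were drawn for each gene on its own, without regional differences shared between genes, so the rates need not hold for the real counts. Alternatives were DESeq2 1.42.0, limma-voom 3.58.1 with quality weights, other scalings and filters, all 3 groups in one fit, the share of rRNA-like counts as covariate, and leaving out each mouse. Sequences came from RefSeq.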

Additional observations from a re-analysis of the deposited data

Results flagged for a closer look

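Among 60 groups of values (each of the 10 genes in each group of mice, as CPM and relative to microglia at large), 2 held a mouse far from the rest of its group, where chance flags about 1 in 20. Olfml3 stood at 48 CPM in vehicle-treated APP/PS1 mouse 20 against 22.7 CPM in the next mouse of that group. The level of Csf1r relative to microglia at large was 1.95 in CP2-treated APP/PS1 mouse 23 against 2.18 in the next mouse.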

How the results depend on the processing

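The counts of genes called kept within 1.5 times of the reported ones in all settings tried. In APP/PS1 against NTG mice 5 (without NTG mouse 9) to 9 (without mouse 16) of the 10 genes were called when a mouse was left out, and 7 to 9 under other settings (9 with DESeq2). In CP2-treated against NTG mice the ranges were 5 to 7 and 5 to 9, and with CP2 against vehicle 0 in all settings. Cx3cr1, Siglech, Selplg, Csf1r and Gpr34 were called in APP/PS1 against NTG mice in every setting. In CP2-treated against vehicle-treated mice, leaving out a mouse moved the log2 fold change between −0.056 and 0.041 for Sall1, −0.1 and 0.019 for Siglech and −0.319 and 0.213 for Olfml3, changing its sign in some, and the cause was not tested. The lowest count of any of the 10 genes in a mouse was 790, and the effect of depth on the calls was not tested. No paired analysis was possible because the groups share no replicate numbers.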
